A study of Mus musculus with 4 samples.

Results

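Transcripts of 41 genes that make up the contractile, calcium-handling and energy machinery of skeletal muscle were followed in liver RNA of mice made obese by a high-fat diet. The genes were selected by name, with measured values of these same arrays known beforehand, so their values are given as a description and no test was run on them. All 41 were on the array, among 26582 gene names, and 78 probes carried them. A gene with several probes is represented by its brightest one.

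All mice were male C57BL/6J, bought at 8 weeks of age, and weighed at least 40 g after 14 weeks on a high-fat diet. For 11 days they were given 2 µL into the nose of saline or of GALP, galanin-like peptide, which neurons of the hypothalamus make. One pool of liver RNA came from 4 mice that lost more weight on GALP (greater weight loss), another from 4 that lost less (less weight loss), and the control pool from 8 mice on saline. Each GALP pool shared 2 dual-colour arrays with the saline (control) pool, array 1 with GALP in the Cy5 dye and array 2 with GALP in Cy3. Each group is therefore 1 pool, and its arrays repeat the same extracts.

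Skeletal muscle contracts when thick filaments of myosin slide along thin filaments of actin inside the sarcomere. Calcium released from the sarcoplasmic reticulum binds the troponin complex and opens the thin filament, and creatine kinase, glycolysis and myoglobin keep the fibre supplied. Fast and slow fibres use different genes for the same parts, so that a fast and a slow troponin or myosin can be read side by side. Hepatocytes do not build sarcomeres.

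Because these families hold close relatives, the probes assigned to fast and slow isoforms are shown by their first 30 of 60 bases, in lower case with no base marked. The order is the fast myosin heavy chains with the slow Myh7, then the fast and slow troponins I, C and T.
Myh1: ggaggttcacaccaaaatcataagcgaaga
Myh2: aatgaccgaagcgaggcacaaaatgtgaaa
Myh4: gaagaataatccatctttctgttgagaggt
Myh7: tcagacctggagcctttgcaacagcccttt
Tnni2: agcattggggaagcacccaacatccagtct
Tnni1: ctatgatattgaagccaaatgcctccacaa
Tnnc2: acgggaaaggctgctcctttgggctctgtg
Tnnc1: tgcaggagatgatcgacgaagtagacgagg
Tnnt3: ggagaagctgaaacgtcagaaatatgatat
Tnnt1: tgaaactccggattctgtctgagaggaaaa

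On the mm9 build that the arrays use, the 3 fast myosin probes lie on the plus strand of one chromosome. They are at chr11:67037938-67037997 for Myh1, chr11:67010910-67010969 for Myh2 and chr11:67073834-67073893 for Myh4. The Myh7 probe is at chr14:55589531-55589590 on the minus strand. The Tnni2 probe is at chr7:149630241-149630300, and the Tnnc2 probe at chr2:164602661-164602720 on the minus strand. The files do not say which exon or untranslated part a probe reads, but 24 of the 78 probes span more than 60 genomic bases, the length of the probe, among them that of Tnnt3 at chr7:149698500-149700262. The longest run of bases shared by probes of different members was 13, between Tnnt3 and Tpm2. The fast myosins Myh2 and Myh4 shared at most 12, so no pair of member probes repeats the same sequence. Probes were compared only with each other and not with transcripts of related genes. Whether each probe reads only its own isoform was therefore not tested.

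The arrays read liver RNA. Of 10 hepatocyte markers, 9 had signal in at least 1 channel of every array, with log2 ratios between -0.19 and 0.31 in the greater weight loss pool and between -0.56 and 0.11 in the other. Between 39.8% and 46.0% of all probes were well above background per channel, a flag that the scanner software sets. The arrays themselves were bright enough for muscle transcripts to be seen in the control: 23 of the 41 genes were well above background in the control channel of all 4 arrays. Markers of other tissues also differed between pools, and their values are given at the end.

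Of the 41 genes, 23 could be read on every array and 18 could not. As processed, 20 of the 23 were within 0.5 of the control on the log2 scale in the greater weight loss pool. In the less weight loss pool 19 were below -1 and 4 were within 0.5. Of the 15724 probes with signal, 14937 were within 0.5 in the greater and 14854 in the less weight loss pool, where 100 were below -1. In 5 of the 23 genes the GALP channel was well above background on neither array of the less weight loss pool. For these only an approximate limit is given there, with the GALP signal raised to the dimmest well above background on its array. For Smpx, Mybpc2 and Pgam2 this limit does not reach -1. With another background correction (normexp, offset 50) 4 of the 23 were below -1 in that pool, with a median of -0.25. In the greater weight loss pool 27 of the 41 genes were well above background on both arrays of the GALP channel. With less weight loss 11 were. The processed signals summed over the 41 genes were between 10243 and 12877 in the control channel of the 4 arrays. In the GALP channel they were 14972 and 12075 in the greater weight loss pool, within or above the control range, and 3369 and 3648 in the less weight loss pool, below every control value. In bulk liver RNA, fewer muscle cells and less RNA per cell cannot be told apart.

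Over the 23 genes with signal in at least 1 channel of every array, the median log2 ratio of GALP over control was 0.17 (range -0.28 to 0.81) in the greater weight loss pool. In the less weight loss pool it was -2.16 (range -3.03 to -0.13). The low end, Sln, is a processed value with the GALP channel not well above background. Probes of all genes with signal had medians of -0.02 and -0.03. With no filter on signal, the medians of the 41 genes were 0.11 and -1.29. The 23 genes passed partly through the channels where they were high, and the selection of the members used the same ratios, so these medians describe the members only.

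**Figure D1:**
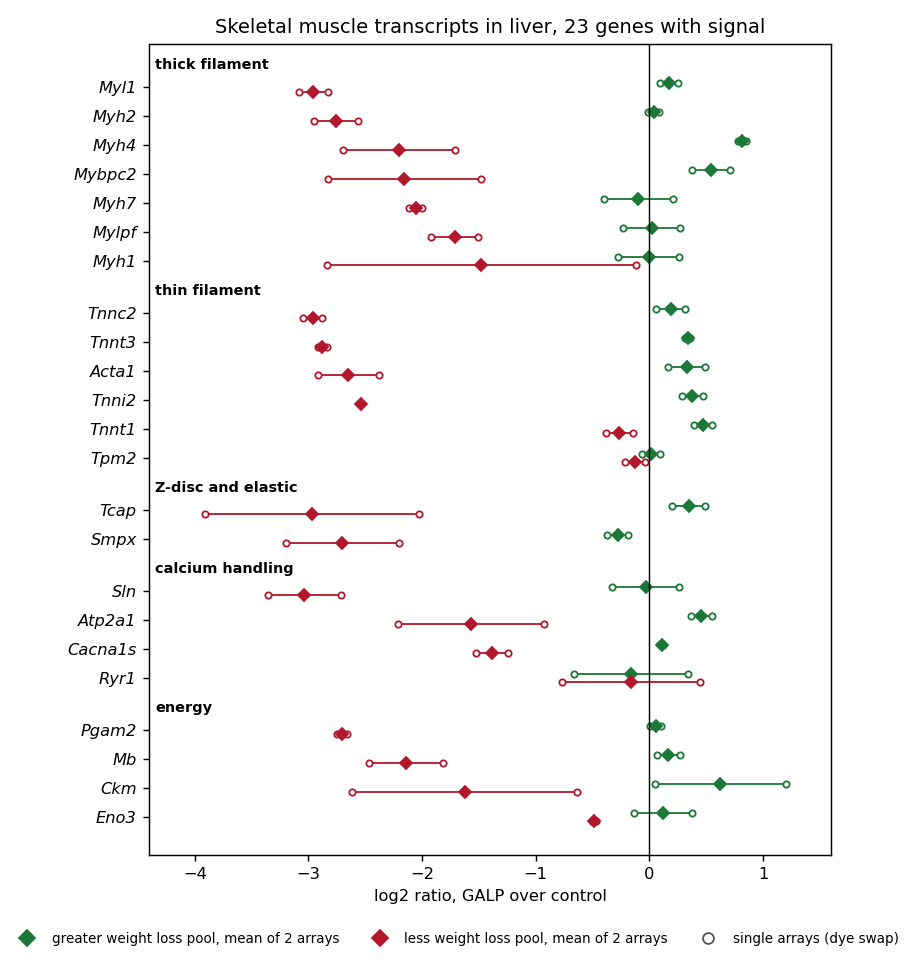
Log2 ratio of GALP over control (x axis) for the 23 muscle genes with signal, grouped by role. Diamonds are the mean of the 2 arrays of a pool and open circles the single arrays. In the less weight loss pool every mean lies below 0, from -0.13 (Tpm2) to -3.03 (Sln), while in the greater weight loss pool the means lie between -0.28 and 0.81. For Sln, Myh4, Pgam2, Smpx and Mybpc2 the GALP channel of the less weight loss pool was not well above background.

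One threshold for a changed probe is a fold over 1.5 or under 0.75 with a p-value of the scanner software under 0.01. Applied to the less weight loss pool alone, on both arrays, it called 21 of the 78 member probes lower, and by their brightest probe 17 of the 41 genes, against 0.366% of all 41037 probes. It called 0 higher, against 0.234%. In the greater weight loss pool alone it called 1 member probe higher, that of Myh4, against 0.297%, and 0 lower, against 0.395%. Asked of both pools on all 4 arrays, it called 0 members higher and 0 lower, against 0.0585% and 0.132% of all probes. No member was above 0 on all 4 arrays, against 5.33% of probes, and 2 member probes were below 0 on all 4, against 6.63%. Since the members were chosen with these ratios known, nothing is read from the shares. The p-value compares the extracts of 1 array and holds no spread between mice.

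Of the 15724 probes with signal in every array, 100 (0.636%) had a log2 ratio below -1 in the less weight loss pool, and 23 of these were probes of the members. In the greater weight loss pool 94 probes were below -1, and 0 of them were probes of members.

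Most muscle spots were dim, and the size of the ratios depended on the background correction, though not equally in dim and bright genes. Before any scaling, the control spots of the 23 genes read between 1.28 times (Smpx) and 12.5 times (Tnni2) their local background, with a median of 1.86 times. In 13 genes the control spot was under 2 times the background. The ratio of such a gene rests on a small difference from the background. With the normexp correction and an offset of 50, the median in the less weight loss pool was -0.25. With an offset of 1 it was -1.24. Of the brightest genes, Tnni2 moved with offset 1 from -2.54 to -2.47, Tnnc2 from -2.96 to -2.78 and Mb from -2.14 to -1.92. Of the dimmest, Smpx moved from -2.70 to -1.53, Mybpc2 from -2.16 to -1.18 and Pgam2 from -2.70 to -1.37. With offset 50, Tnni2, Tnnc2 and Mb read -1.76, -1.73 and -1.17, so bright genes moved as well. All 23 genes kept a ratio below 0 in that pool under both corrections.

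**Figure D2:**
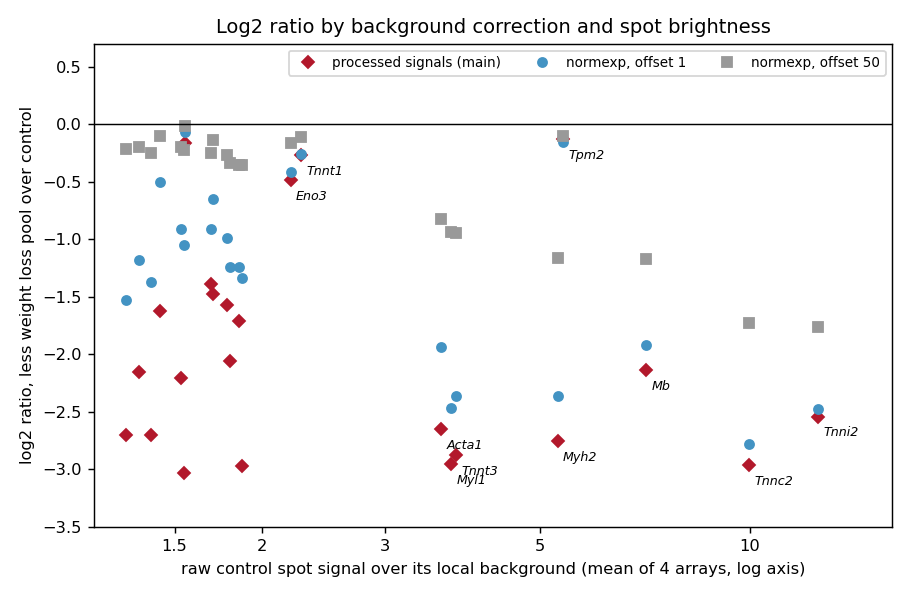
Log2 ratio in the less weight loss pool (y axis) against the raw control signal over its local background (x axis, log scale) for the 23 genes, by background correction. Red diamonds are the processed signals used in the text, blue circles normexp with offset 1 and grey squares normexp with offset 50. Tnni2 reads -2.54, -2.47 and -1.76, Sln -3.03, -1.05 and -0.22, and Ryr1 lies near 0 with each.

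Of 8 thick-filament genes, 7 had signal on every array, with a median log2 ratio of 0.04 in the greater and -2.16 in the less weight loss pool. Myh2 encodes the fast myosin heavy chain of oxidative fibres. Its processed signals in the greater weight loss pool were 988 and 972 with GALP against 996 and 916 in the control. With GALP in the less weight loss pool they were 146 and 118 against 861 and 914. Both less weight loss values lay below every control value, and the log2 ratio was 0.04 in the first pool and -2.76 in the second. A separate bright Myh2 probe gave 0.06 and -2.69.

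Myl1, the alkali light chain of fast myosin, read 712 and 547 with GALP in the greater weight loss pool, against 667 and 458 in the control. For the less weight loss pool the reading was 65.0 and 73.2 against 553 and 519. The log2 ratios were 0.09 and 0.25 on the arrays of the first pool and -3.09 and -2.82 on those of the second, a mean of 7.76-fold lower. A second, dim Myl1 probe, well above background in 2 channels, gave -0.73 and -0.45.

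Myh4, the heavy chain of the fastest fibres, was the one member called higher in the greater weight loss pool. Its signals there were 251.5 and 204 with GALP against 140 and 119 in the control, log2 ratios of 0.85 and 0.78. With less weight loss they were 26.1 and 15.9 against 85.3 and 103, and the GALP channel was not well above background on either array. By the approximate limit, set by the dimmest signal that the array still called well above background, Myh4 was 2.47-fold lower there. The limit is not strict, since a spot without the flag can be brighter. On array 1 of the less weight loss pool Atp2a1 read 37.2 with GALP without the flag, while the dimmest flagged GALP signal was 30.3. A second Myh4 probe gave log2 ratios of 0.74 and -2.05.

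The slow heavy chain Myh7 had the same order of pools. It read 170 and 84.3 with GALP against 147 and 111 in the greater weight loss pool, and 42.4 and 27.2 against 169 and 117 in the less weight loss pool. On the greater weight loss arrays the sign changed with the dye, at 0.21 and -0.40. On the others it was -1.999 and -2.11, with the GALP channel well above background on 1 of them.

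The remaining thick-filament genes were dimmer. Mybpc2, the fast myosin-binding protein C, was 1.68-fold lower by the approximate limit in the less weight loss pool and stood at 0.55 in the other pool. Mylpf, the fast regulatory light chain, had log2 ratios of 0.02 and -1.71. Myh1, the heavy chain of intermediate fast fibres, differed between the arrays of the less weight loss pool, at -2.84 and -0.12. On the second of these arrays both channels of its spot stood higher, at 247 in the control and 227 with GALP, while the control read 96.2 to 126 on the other arrays. The mean of -1.48 therefore rests on 1 array.

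In the thin filament all 3 fast troponin subunits could be read on every array. Tnni2, the fast inhibitory subunit, read 3209 and 2757 with GALP in the greater weight loss pool against 2635 and 1993 in the control. With less weight loss it read 472 and 410 against 2754 and 2384. The log2 ratios were 0.28 and 0.47, then -2.55 and -2.54, so that the dye swap hardly moved the second pair.

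Tnnc2, the fast calcium-binding subunit, read 2026 and 1827 with GALP against 1946 and 1469 in the greater weight loss pool. The less weight loss pool read 244 and 193 against 1793 and 1593, with log2 ratios of -2.88 and -3.05. Tnnt3, the fast tropomyosin-binding subunit, read 813 and 632 against 633 and 509 in the first pool. In the second it read 71.6 and 72.8 against 541 and 520, a log2 ratio of -2.88. Its other probe, in the same gene, gave -1.83, so the probes differ in size and not in direction. As processed, the 3 fast subunits stood between 5.82-fold (Tnni2) and 7.80-fold (Tnnc2) below the control in this pool. With normexp and an offset of 50 their log2 ratios were -1.76 for Tnni2, -1.73 for Tnnc2 and -0.94 for Tnnt3, so the size and the order of these bright genes also depend on the correction.

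The slow subunits did not give such a reading. Tnnt1, slow troponin T, was the only one of the 3 with signal. It read 338 and 297 with GALP against 231 and 226 in the greater weight loss pool, and 234 and 158 against 259 and 205 in the less weight loss pool. Its log2 ratios were 0.55 and 0.39, then -0.15 and -0.38, so it was higher than the control in one pool and close to it in the other. Tnni1, slow troponin I, was well above background in 0 of 8 channels. Tnnc1, the subunit of slow and cardiac muscle, was so in 2 of 8. Its log2 ratios were 1.56 and -1.48, then 1.54 and -0.57, with opposite signs on the arrays of each pool. No order between fast and slow can be read for these genes.

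Acta1, skeletal muscle alpha-actin, read 811 and 602 with GALP against 576 and 538 in the greater weight loss pool, and 99.8 and 82.0 against 520 and 619 in the less weight loss pool. The log2 ratios were 0.33 and -2.65. Tpm2, beta-tropomyosin, which smooth muscle also makes, did not follow. It read 1077 and 646 against 1008 and 678 in the first pool and 726 and 558 against 840 and 574 in the second, log2 ratios of 0.01 and -0.13. A second bright Tpm2 probe gave 0.00 and 0.09. Its control spot read 5.40 times the local background.

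**Figure D3:**
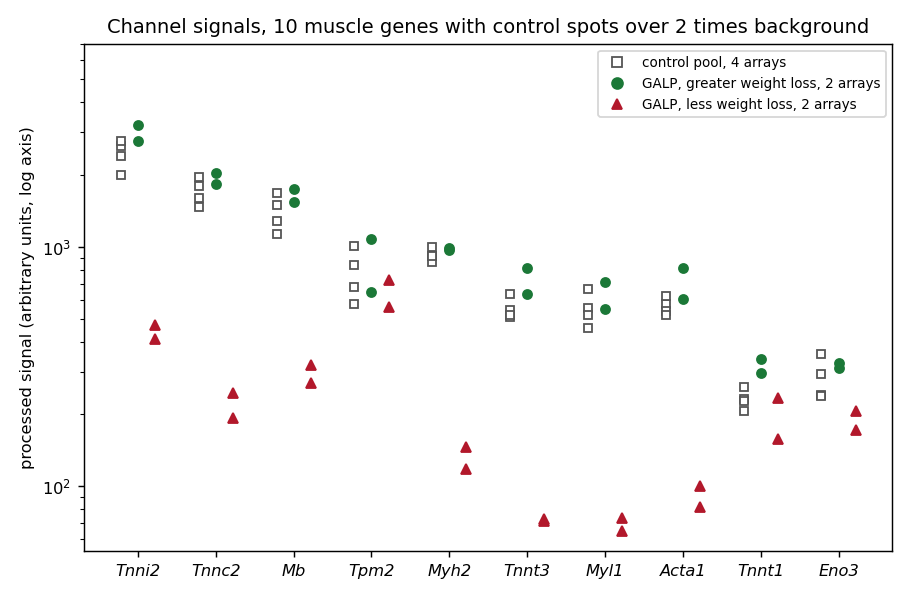
Processed signal (y axis, log scale) of the 10 muscle genes whose control spot was at least 2 times its local background. Squares are the control pool on 4 arrays, circles GALP in the greater and triangles GALP in the less weight loss pool, on 2 arrays each. For Tnni2, Tnnc2, Mb, Myh2, Tnnt3, Myl1, Acta1 and Eno3 both triangles lie below every control value, while for Tpm2 and Tnnt1 one lies within the control range and the other below it. Levels of different genes cannot be compared, since each has its own probe.

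Of 9 genes of the Z-disc and the elastic filament, 2 had signal on every array. Tcap, which caps titin at the Z-disc, had log2 ratios of 0.49 and 0.20 in the greater weight loss pool and of -2.03 and -3.91 in the less weight loss pool. Smpx, a small protein of the muscle membrane skeleton, read 60.9 and 51.4 with GALP against 78.8 and 58.5 in the greater weight loss pool, and 7.2 and 10.4 against 65.7 and 48.0 in the less weight loss pool. Its GALP channel was not well above background in the latter, and by the approximate limit it was 1.48-fold lower. It was the only gene whose brightest probe was below 0 on all 4 arrays.

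Among the calcium-handling genes, Sln, which encodes a small inhibitor of the calcium pump, was dim in both channels. It read 136 and 111 with GALP against 113 and 139.5 in the greater weight loss pool, and 17.02 and 10.6 against 112 and 109 in the less weight loss pool. The GALP channel of the latter was not well above background, and by the approximate limit Sln was 2.90-fold lower. A second Sln probe was listed at a log2 ratio of 0 in both pools, with no channel well above background. Atp2a1, the fast calcium pump, had log2 ratios of 0.46 and -1.57, the latter from arrays at -2.21 and -0.92, and a second Atp2a1 probe gave 0.41 and -0.42. Cacna1s, the voltage sensor of the T-tubule, had 0.11 and -1.39. Ryr1, the calcium release channel, was near the control in both pools at -0.16 and -0.16, but its sign changed with the dye in each pool, at 0.34 and -0.66, then 0.45 and -0.77.

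Of 6 energy genes, 4 had signal on every array. Mb, myoglobin, read 1745 and 1538 with GALP against 1670 and 1276 in the greater weight loss pool, and 270 and 321 against 1490 and 1129 in the less weight loss pool, log2 ratios of 0.17 and -2.14. Pgam2, the muscle phosphoglycerate mutase of glycolysis, read 86.7 and 67.3 against 80.8 and 66.9, then 10.6 and 12.6 against 70.9 and 79.6. It was not well above background with GALP in the less weight loss pool and was 1.98-fold lower by the approximate limit. Ckm, muscle creatine kinase, was uneven between arrays, with log2 ratios of 1.20 and 0.05, then -2.61 and -0.64. Eno3, beta-enolase, read 206 and 172 against 293 and 237.5 in the less weight loss pool, a log2 ratio of -0.49, with both values below every control value, and 0.12 in the other pool.

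The shift was thus not the same for every muscle gene. Over the 23 genes the processed ratios in the less weight loss pool had an SD over genes of 0.96 on the log2 scale. They include the genes with only an approximate limit. The arrays of the pool differed by a median of 0.41 per gene. In the greater weight loss pool the SD over genes was 0.27 and the median gap 0.21. The 10 fast-fibre genes with signal, of 14, had a median of -2.37 in the less weight loss pool and all lay between -1.48 (Myh1) and -2.96 (Tnnc2). The slow-fibre list had 2 of 5 genes with signal, Myh7 at -2.06 and Tnnt1 at -0.26. The energy genes with signal, 4 of 6, had a median of -1.88 and ran from -0.49 to -2.70. With so few slow genes measured, a difference between fast and slow fibres was not tested.

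Among the 10 genes whose control spots were at least 2 times the background, a limit set after the values were seen, the readings in the less weight loss pool formed 2 ranges, with none between. Tnnc2, Myl1, Tnnt3, Myh2, Acta1, Tnni2 and Mb were between -2.14 and -2.96. Eno3, Tnnt1 and Tpm2 were between -0.13 and -0.49. The gap holds for this limit only. Just under it, with control spots 1.69 to 1.86 times the background, Myh7 (-2.06), Mylpf (-1.71), Atp2a1 (-1.57), Myh1 (-1.48) and Cacna1s (-1.39) lay in the gap. Tcap, at 1.87 times, was at -2.97.

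The other 18 genes did not have signal on every array, so their ratios do not show a direction. Among these, Mybpc1, Tnni1, Tmod4, Actn2, Cacng1, Casq1, Pvalb and Ampd1 were well above background in 0 of 8 channels. Casq1, the calcium store of fast fibres, and Cacng1, a subunit of its calcium channel, were listed at a log2 ratio of 0 on all 4 arrays. Pvalb, the calcium buffer of fast fibres, was so on 3 arrays. Actn3 and Pygm reached the flag in 1 channel, Neb and Tnnc1 in 2, Myoz1 in 3, Ldb3, Myot and Trdn in 4, and Ttn and Xirp2 in 5. The giant genes gave little: 10 probes read Ttn, titin, and 6 read Neb, nebulin, and the brightest of them had log2 ratios of -0.14 and -0.38 for Ttn and of 0.54 and -0.42 for Neb.

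Single bright spots stood behind some of these values. On array 2 of the less weight loss pool the brightest Neb probe read 164.5 in the control and 230 with GALP, against at most 17.9 in the control elsewhere. The brightest Xirp2 probe read 163 and 242.5 there, against at most 49.7 in the control elsewhere. On array 1 of that pool Trdn read 418 and 183, against at most 36.0. Their part in the ratios was not tested.

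The control pool is the same RNA on every array, so its channel shows how repeatable a muscle reading was. After the 4 arrays were set on 1 scale (Aquantile), the control signals of the 23 genes had a median SD of 0.27 on the log2 scale over the 4 arrays. The control channel of the less weight loss arrays was a median of 0.21 lower than that of the greater weight loss arrays (-0.21, range -1.16 to 0.32). The GALP channel was a median of 2.78 lower (-2.78, range -3.60 to -0.41). The pools share their control, so their ratios are not independent, and the difference between 1 pool and 1 pool has no replicate.

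A wider list of 55 skeletal muscle genes outside the 41 gave 20 with signal on every array. Their medians were 0.06 in the greater and -0.40 in the less weight loss pool, where they ran from -3.51 to 0.54. In the greater weight loss pool 0 of the 20 had a log2 ratio below -1, against 0.598% of all probes with signal. In the less weight loss pool 7 had, against 0.636%. They were Ckmt2, the mitochondrial creatine kinase of muscle (0.18 in the greater and -3.51 in the less weight loss pool), the muscle subunits of cytochrome oxidase Cox8b (0.06 and -2.62) and Cox6a2 (0.14 and -2.08), the light chains Myl2 (-0.02 and -1.87) and Myl3 (0.05 and -1.21) of slow and cardiac muscle, and Ankrd23 (0.07 and -1.39) and Nrap (-0.14 and -1.24). The 3 brightest of the list, Tpm3, Cox7a1 and Csrp3, had -0.07, -0.15 and 0.18 in the less weight loss pool. Scn4a, at 0.54, and a Pdlim3 probe with signal, at 0.52, also stood above the control there. Tpm1, alpha-tropomyosin, which many tissues splice differently, had one probe at -2.29 and its brightest at 0.02. The list was written with earlier results of these data known.

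Most regulators of muscle identity were at background. Among the myogenic regulators listed, Myod1, Myog, Myf5, Pax7 and Eya4 were well above background in 0 of 8 channels. Mef2a and Mef2d, which other tissues also make, had signal and were at 0.36 and 0.00 in the less weight loss pool. Among 13 cardiac markers, Nppa, Nppb, Pln, Ryr2 and Mybpc3 were at 0 of 8 channels, and the heart myosin Myh6 was well above background in 2. The cardiac genes with signal were Myl2, Myl3 and Myl4, and the first 2 are also made in slow skeletal fibres. The processed signals of the cardiac list summed to 491 to 495 in the control and 468 to 487 with GALP on the greater weight loss arrays, and to 550 and 550 in the control and 339 to 364 with GALP on the others.

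Smooth muscle genes were near the control in both pools. Of 9 listed, 8 had signal, with medians of -0.02 and 0.06. Tagln had log2 ratios of 0.37 and 0.18, Mylk 0.02 and 0.05, and Acta2, the actin of vessel walls and activated stellate cells, 0.26 and 0.11. The 3 adipose genes with signal had medians of -0.40 and -0.26. The 4 blood genes had -0.06 and -0.18, and the 2 mesothelial genes -0.26 and -0.56.

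Transcripts of neighbouring organs differed between the pools as well, in another order. The 6 genes of the pancreas list with signal had a median of -3.82 in the greater weight loss pool and 0.86 in the less weight loss pool, with Cela3b at -4.10 and 0.96, Cpa1 at -3.36 and 0.73 and Cel at -3.74 and 0.84. Their processed signals summed to 88361 to 113304 in the control, to 6899 and 9903 with GALP in the greater and to 161790 and 166699 with GALP in the less weight loss pool. The stomach genes Tff1 and Gkn2 were low in both pools, at -3.63 and -3.64 for Tff1, and Tff2 followed the pancreas at -3.79 and 0.68. Gcg, Pgc and Gkn1 were at 0 of 8 channels. The part of tissue taken along with the liver, or of any single animal in a pool, in the muscle values was not tested.

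**Figure D4:**
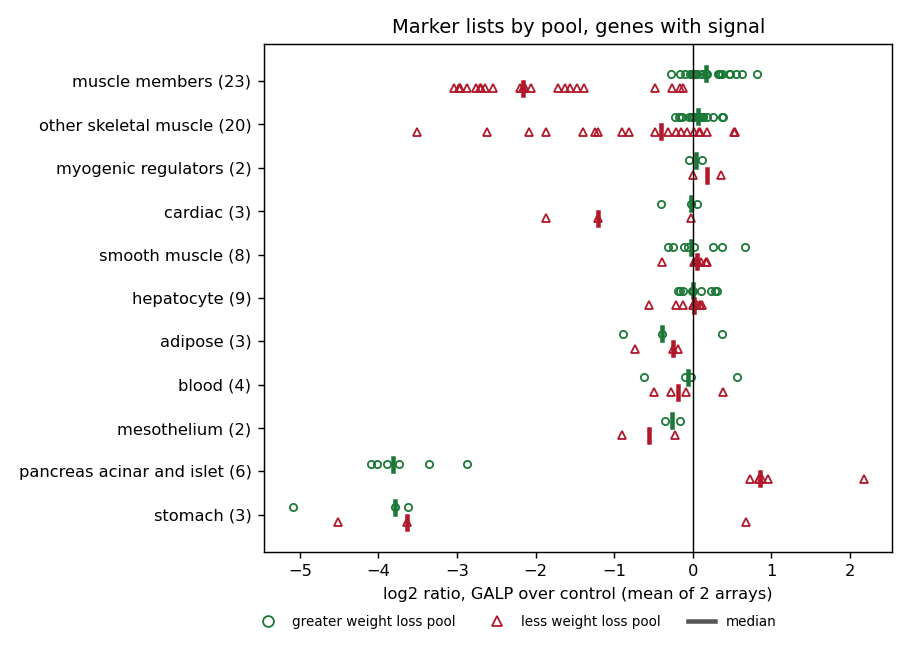
Log2 ratio of GALP over control (x axis) for genes with signal in each marker list (number of genes in brackets). Circles are the greater and triangles the less weight loss pool, and thick bars are medians. The skeletal muscle members have medians of 0.17 and -2.16, the pancreas genes -3.82 and 0.86, and the hepatocyte genes 0.00 and 0.02.

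The members can also be looked at for what their upstream sequence holds, whether or not they had signal or a lower ratio. Of the 41 genes, 30 were found in a RefSeq table of gene starts on build GRCm38.p6, and the 250 bases before each start were searched on both strands. The E-box CANNTG, the letters that MyoD-family factors bind, was in 25 of the 30 (83.3%) and in 69.3% of all 27025 genes in the table. A MEF2 match was in 6 (20.0%, against 1.99%) and a CArG box, the letters that SRF binds, in 3 (10.0%, against 1.62%). Among those with a MEF2 match, Pvalb, Ttn and Xirp2 did not have signal on every array. Among those with a CArG box, Ldb3 did not. Matches are letters and not sites, and no test was made of the shares. Acta1 and Tnnc2, at -2.65 and -2.96 in the less weight loss pool, and Tnnt1, close to the control there, are shown with the matches, which do not overlap each other, in capitals. Acta1 lies at chr8:123894776-123895025, Tnnc2 at chr2:164779735-164779984 and Tnnt1 at chr7:4515976-4516225, all on the minus strand.
Acta1: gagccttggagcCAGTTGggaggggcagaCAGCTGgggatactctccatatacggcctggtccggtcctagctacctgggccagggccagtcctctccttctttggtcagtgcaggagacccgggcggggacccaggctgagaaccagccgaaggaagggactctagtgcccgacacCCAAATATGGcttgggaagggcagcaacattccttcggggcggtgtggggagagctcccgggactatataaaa
Tnnc2: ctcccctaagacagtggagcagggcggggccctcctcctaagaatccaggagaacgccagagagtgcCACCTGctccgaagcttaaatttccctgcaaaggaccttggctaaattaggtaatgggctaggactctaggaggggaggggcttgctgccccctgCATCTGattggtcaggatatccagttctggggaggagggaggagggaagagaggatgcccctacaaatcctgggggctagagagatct
Tnnt1: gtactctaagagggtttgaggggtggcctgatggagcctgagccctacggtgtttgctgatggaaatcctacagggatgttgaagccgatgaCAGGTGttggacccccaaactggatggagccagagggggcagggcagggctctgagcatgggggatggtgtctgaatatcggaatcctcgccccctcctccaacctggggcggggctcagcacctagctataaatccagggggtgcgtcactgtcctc

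Acta1 held 2 E-boxes and 1 CArG box, Tnnc2 held 2 E-boxes and Tnnt1 held 1. Each gene shown thus held an E-box, and whether matches go with the ratios was not tested.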

How the data were processed

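Liver RNA pools were compared on 4 dual-colour Agilent arrays. The deposited processed intensity had its background subtracted and its dyes balanced with LOWESS in Feature Extraction, version 12.0.3.1 in the headers and 11.0.1.1 in the submitters' notes. That software also made the deposited log10 ratio of Cy5 over Cy3 and the deposited p-value. For spots with a nonzero ratio, the authors' series table repeats the ratios with GALP on top. Other spots were left out of that check. Here every ratio was put on the log2 scale with control as the denominator. Spots with outlier marks were dropped, then spots of a probe and arrays of a pool were averaged. The control was treated as 1 pool, although labels give it a weight loss group. Its own spread is left out.

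Members and lists were chosen with earlier results of these data known. Values on every array were given for the members with the 6 largest and 2 smallest absolute mean ratios among those with signal, and for 4 fast and slow pairs; other lists by their 3 brightest genes. Limits compared the control with the higher of the GALP signal and the dimmest signal well above background on that array. They are approximate, since a spot without the flag can be brighter than that signal.

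Over 41037 probes, limma 3.58.1 (R 4.3.3; lmFit, eBayes, 2 pools against 0, Benjamini-Hochberg) called 0 probes at an adjusted p of 0.05, while without adjustment p was under 0.05 for 2049 above and 2710 below 0. The scripts were tested on simulated data. The number of arrays limits the precision. Alternatives were normexp with loess, the series table, centring, outlier marks, probe choice, filters and each dye orientation or pool alone, and those chosen after seeing the data were an offset of 1, the difference between pools and the count in the less weight loss pool. Python 3.11.15, numpy 2.4.6 and pandas 2.3.3 were used.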

Additional observations from a re-analysis of the deposited data

Results flagged for a closer look

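In 14 of the 23 muscle genes with signal, both arrays of the greater weight loss pool lay above the control and both arrays of the less weight loss pool below it. Of the 15724 probes with signal, 3844 were above 0 on both arrays of the greater weight loss pool. On both arrays of the less weight loss pool 4495 were below 0. How many did both was not counted. Since the members were chosen with these ratios known, nothing is read from the 14. The difference between the pools was not tested, since each is 1 pool. Where GALP was well above background on both arrays of the less weight loss pool, the log2 ratio (less minus greater weight loss pool) differed by -3.21 for Tnnt3, -3.15 for Tnnc2, -3.13 for Myl1, -2.98 for Acta1, -2.92 for Tnni2, -2.30 for Mb, -1.499 for Cacna1s and -0.73 for Tnnt1. It was so on 1 array for Tcap, Ckm and Atp2a1, whose processed differences were -3.32, -2.25 and -2.03. For Myh4, Pgam2 and Mybpc2 it was so on 0 arrays, and their processed differences of -3.02, -2.76 and -2.70 have no order.

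In 3 of the 23 genes 1 array stood apart in the control channel, where the same pool was read 4 times. The gap to the next array was 0.967 of the range for Cacna1s, 0.917 for Atp2a1 and 0.843 for Acta1. Chance gives about 1 in 20 for a gene taken alone, but the genes share the arrays and are not independent. The low array was array 2 of the less weight loss pool for Cacna1s and Atp2a1, and for Acta1 array 2 of the greater weight loss pool stood above the rest, at an SD over arrays of 0.08 on the log2 scale. Array 2 of the less weight loss pool had the lowest control reading in most of the 23 genes. The exceptions were Ckm, Myh1, Myh2, Acta1, Tnnc2 and Tnni2.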

How the results depend on the processing

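The size of the muscle ratios depended on the background correction. Against the main values, the normexp alternatives changed the correction, the loess normalization and the offset together, and the part of each was not tested. Between themselves, the runs with offset 50 and offset 1 differ only in the offset. The median in the less weight loss pool was -2.16. It was -0.25 with normexp and an offset of 50, -1.24 with an offset of 1, -2.54 over the 11 genes well above background in both channels on all arrays, -1.29 with no filter, and -2.38 on the array with GALP in Cy5. The median difference between pools, -2.42, became -0.33 with normexp and offset 50, -1.47 with offset 1, -2.80 over probes well above background in both channels, -1.499 with no filter, and -2.08 with GALP in Cy3. With an offset of 1, Tpm2 and Ryr1 were no lower in the less than in the greater weight loss pool, at 0.09 and 0.03, and with 50 Tpm2 was so at 0.07. The median of the greater weight loss pool, 0.17, was 0.26 with GALP in Cy5 alone. Leaving out a pool, the median over pools (-0.99) ran from -2.16 to 0.17, that of fast genes (-0.96) from -2.37 to 0.26, of slow genes (-0.49) from -1.16 to 0.19, and of energy genes (-0.74) from -1.88 to 0.14. Member probes called lower in the less weight loss pool, 21, were 8 with normexp and offset 50, 10 over probes well above background in both channels, and 34 without the p-value. Genes called lower by both pools ran from 0 to 17 and called higher from 0 to 1 when a pool was left out. Genes below 0 on all arrays, 1, were 3 in the series table, 2 with offset 1, 2 with the mean of all probes, 0 over probes well above background in both channels, 5 with GALP in Cy5 and 14 with GALP in Cy3, and ran from 1 to 27 when a pool was left out. Genes above 0 on all arrays, 0, were 2 with GALP in Cy5 and 2 in Cy3, and ran from 0 to 17. Values of single genes moved beyond the spread between pools in 7 cases, 6 of Ryr1 and 1 of Tpm2. That SD comes from the difference between the pools itself, so the count does not show that single values are stable. It was 0.003 for Ryr1 and 0.10 for Tpm2, but 2.10 for Acta1. The mean of Acta1 over pools went from -1.16 to -0.26 with normexp and offset 50 without passing it. The limma count of 0 was 1 over the 15724 probes with signal. No paired analysis was possible because each group is 1 pool of different mice, and each ratio already sets GALP against the control on 1 array.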
